A study of Homo sapiens with 12 samples.

Results

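The genes described here are the interferon-stimulated genes and the JAK-STAT components through which interferons act, in 22RV1 and LnCaP, which are both human prostate cancer cell lines. The members were a list of 38 named genes, and a gene was measured where the deposited table held a probe set with 1 gene symbol. This gave 37 measured members of 11963 genes. STAT2, the remaining member, is not analysed here. The study asked how nicotine changes gene expression in prostate cancer cells. Its 4 groups were untreated 22RV1, 22RV1 kept in 100 µM nicotine tartrate for 24 h, untreated LnCaP and LnCaP given the same nicotine exposure, with 3 arrays in each group and 12 in all. Controls are labelled as untreated, without mention of a vehicle, and no group was given interferon, so every value below is a basal level or a level after nicotine. Each line is a single established cell line and stands for itself, not for a class of tumours, and an extract is an average over its cells, so fewer cells expressing a gene and less RNA per cell cannot be told apart.

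Interferons signal by bringing receptor chains together, which activates the JAK kinases bound to those chains, and the kinases then phosphorylate STAT factors that move to the nucleus. Type I interferon acts through IFNAR1 and IFNAR2 with TYK2 and JAK1, and a transcription complex with STAT2 and IRF9 binds the interferon-stimulated response element (ISRE) in the promoters of antiviral genes. Interferon gamma acts through IFNGR1 and IFNGR2 with JAK1 and JAK2, and its target promoters carry the gamma-activated site (GAS). LNCaP cells, in the usual spelling of that line, are known for silencing of JAK1 and a poor response to interferon.

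The deposited values are log2 expression values, so a difference of 1 is a 2-fold difference. Differences are given with the standard error (SE) of a limma fit over all 12 arrays, and a gene was called higher or lower at a two-sided Benjamini-Hochberg adjusted p under 0.05 over all genes. Arrays of a group correlated at 0.991 or more over genes, and arrays of different lines at 0.923 or less. The 8 measured prostate epithelial markers of 11 listed, among them KLK3, HOXB13, KRT8, KRT18 and EPCAM, had group means at or above the 74.5th percentile of all probe sets in every group. Of 19 listed markers of leukocytes, stroma and endothelium, 17 were measured, and their mean log2 level ran from 5.0 to 5.10 over the 22RV1 arrays and from 5.11 to 5.31 over the LnCaP arrays. Of 7 leukocyte markers, 5 lay below the 25th percentile in all 4 groups. Between the untreated lines 4 of the 17 were higher and 2 lower in LnCaP (35.3%, beside 47.8% of all genes): the endothelial marker VWF was higher by 3.23 and the stromal marker ACTA2 by 2.06, while LUM was lower by 3.62 on the log2 scale. ACTA2 ran from 1.09 to 2.68 over alternative settings of the fit and was called in each. The call of LYZ (0.19), which lay at or below the 4.7th percentile in every group, was lost in 13 of 20 alternatives and without any 1 of 11 arrays (adjusted p up to 0.194). The part of these genes in the results below was not tested.

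The lines differed in 21 of the 37 members when untreated. In LnCaP 15 members were higher and 6 were lower, led by IFI6 (2.59 ± 0.13 SE, 6.0-fold higher), HERC6, IFI44 and DDX60 on the higher side and by ISG15 (-0.89 ± 0.14 SE, 1.86-fold lower) on the lower side. The lines are distant from each other throughout: 47.8% of all genes were called in this comparison, 25.4% higher and 22.4% lower, against 56.8% of the members. The median difference over the members was 0.247, beside 0.047 over all genes, and the median size without sign was 0.37 beside 0.27. Of the called members, 7 differed by at least 1 log2 unit, all of them higher in LnCaP, beside 6.81% of all genes higher and 7.46% lower by that much.

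The treated lines gave similar counts. Between nicotine-treated LnCaP and nicotine-treated 22RV1, 19 members were called, 14 higher and 5 lower, beside 49.9% of all genes (26.2% higher, 23.7% lower), with a member median of 0.21 and 0.055 over all genes. In both comparisons 17 members were called to the same side, 13 higher and 4 lower in LnCaP. The share of all genes called to the same side in both was not computed. IRF9, IFIH1, IFITM1 and IFI27 were called without nicotine but not with it, and IFNAR2 (higher) and BST2 (lower) with it but not without. None of the nicotine effects differed between the lines at the threshold, so these switches are not shown to be differences. Over all 6 arrays of a line, 17 members did not overlap between the lines, 13 with LnCaP above and 4 with LnCaP below, beside 42.1% of all genes (22.2% and 19.9%).

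**Figure D1:**
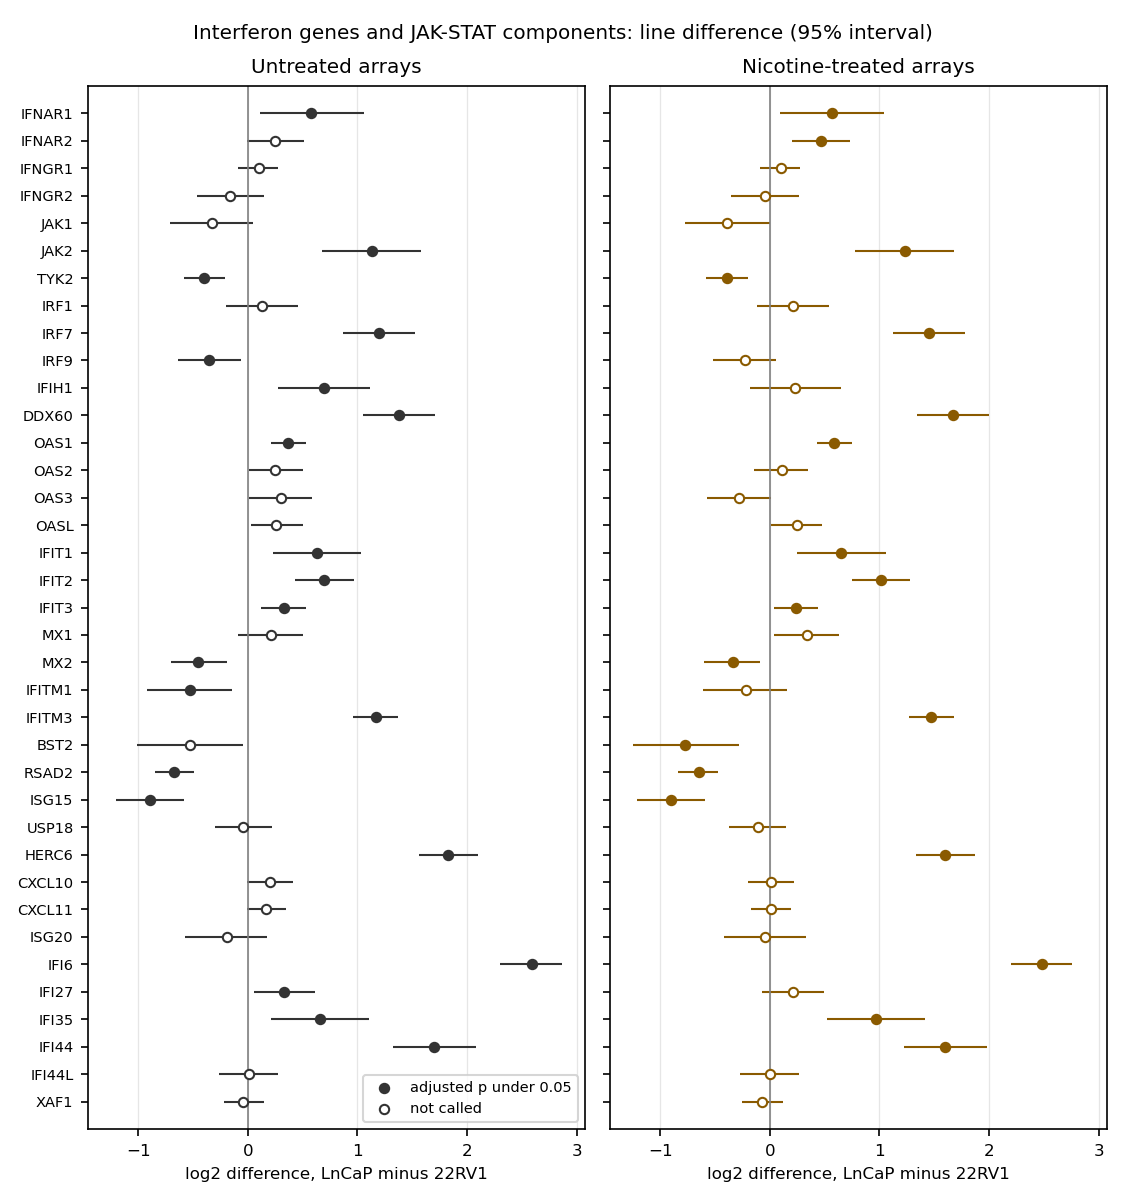
Log2 difference between LnCaP and 22RV1 for the 37 measured members, ordered by role from receptors to induced genes, in untreated arrays (left) and in nicotine-treated arrays (right), 3 arrays a group. Bars are 95% intervals of the limma fit and filled points were called at adjusted p under 0.05; IFI6 lies farthest to the right at 2.59 and 2.48, and ISG15 farthest to the left at -0.89 and -0.90.

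Of the 4 receptor chains, 1 was called between the untreated lines. IFNAR1, the chain that binds TYK2, read 5.24, 5.24 and 5.28 in untreated 22RV1 and 5.14, 5.16 and 5.11 with nicotine. In LnCaP it read 5.43, 6.39 and 5.69 untreated and 5.41, 6.13 and 5.57 with nicotine. The 22RV1 arrays were tightly grouped and all lay below the LnCaP arrays, of which those numbered 2 were the highest. The difference under nicotine was 0.57 ± 0.22 SE (adjusted p = 0.0468, limma), a call lost in 10 of 21 alternatives (adjusted p up to 0.203). The untreated difference was 0.58 ± 0.22 SE (adjusted p = 0.0429, limma). That call was lost when any 1 of 8 arrays was left out, namely each untreated 22RV1 array, nicotine-treated 22RV1 replicates 1 and 2, untreated LnCaP replicates 2 and 3, or nicotine-treated LnCaP replicate 3, and without untreated LnCaP replicate 2 the difference was 0.31 (adjusted p = 0.179, within a range of 0.0113 to 0.179 over its alternatives).

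IFNAR2, the chain that binds JAK1, read 7.17, 7.30 and 7.60 in untreated 22RV1, 7.10, 7.02 and 7.27 in treated 22RV1, 7.53, 7.59 and 7.68 in untreated LnCaP and 7.44, 7.60 and 7.74 in treated LnCaP. The lines overlapped through untreated 22RV1 replicate 3. LnCaP was higher by 0.25 ± 0.12 SE untreated (adjusted p = 0.112, limma; 0.37 and adjusted p = 0.0175 without that array) and by 0.47 ± 0.12 SE under nicotine (adjusted p = 0.00591). With the replicate number as a block shared by both lines the untreated difference passed the threshold (adjusted p = 0.0191). Its probe set is of a kind that can match several transcripts.

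Neither chain of the interferon gamma receptor was called. IFNGR1, its ligand-binding chain, read 8.17, 8.10 and 8.05 in untreated 22RV1, 8.27, 8.16 and 8.39 in treated 22RV1, 8.16, 8.34 and 8.11 in untreated LnCaP and 8.39, 8.34 and 8.39 in treated LnCaP. IFNGR2, the chain that carries JAK2, read 10.04, 9.99 and 10.18, then 10.17, 10.02 and 10.54 in 22RV1, and 10, 10.05 and 9.69, then 10.29, 10.33 and 10.01 in LnCaP, untreated first. The lines overlapped in both genes, with untreated differences of 0.10 (95% interval -0.09 to 0.28) and -0.16 (-0.46 to 0.15). A second probe set of IFNGR1 gave -0.03.

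The kinases went separate ways. JAK2, the kinase of the interferon gamma, growth hormone and several other receptors, read 7.01, 6.59 and 6.50 in untreated 22RV1, 7.0, 6.99 and 6.75 in treated 22RV1, 7.87, 8.10 and 7.54 in untreated LnCaP and 8.36, 8.39 and 7.66 in treated LnCaP. Every LnCaP array lay above every 22RV1 array. The untreated difference was 1.13 ± 0.21 SE (2.19-fold, adjusted p = 6e-04, limma), and a second, dimmer probe set of JAK2 gave 0.49. TYK2, which serves the type I receptor, lay the other way, with 8.50, 8.39 and 8.34 in untreated 22RV1, 8.30, 8.34 and 8.38 in treated 22RV1, 8.07, 8.07 and 7.90 in untreated LnCaP and 7.98, 8.06 and 7.81 in treated LnCaP. Its groups of 6 did not overlap, and it was lower in LnCaP by 0.40 ± 0.09 SE on the log2 scale (1.32-fold, adjusted p = 0.00222).

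JAK1, which both types of interferon need, was not called. It read 6.08, 5.60 and 5.33 in untreated 22RV1, 5.86, 6.22 and 5.81 in treated 22RV1, 5.49, 5.24 and 5.29 in untreated LnCaP and 5.46, 5.78 and 5.50 in treated LnCaP. Its mean was lower in LnCaP, but the lines overlapped and the spread among untreated 22RV1 arrays (SD 0.38, n = 3) was larger than the difference of -0.33 ± 0.18 SE (95% interval -0.71 to 0.05, adjusted p = 0.146, limma). Without untreated 22RV1 replicate 3 the difference was -0.50 (adjusted p = 0.0307, over a range of 0.0307 to 0.557). The difference under nicotine was -0.39 ± 0.18 SE (adjusted p = 0.0876). It passed the threshold with array weights, in a fit of the treated arrays alone and without untreated 22RV1 replicate 1. The JAK1 group means lay between the 33.4th (untreated LnCaP) and 41.1st (treated 22RV1) percentile of all probe sets. The highest group mean of the 7 leukocyte markers lay at the 33.2nd. Whether the LnCaP signal of JAK1 stands above background was not tested.

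JAK3 and the STAT factors outside the listed members set the frame for these kinases. STAT3, the factor of interleukin 6 signalling, read 7.65, 7.60 and 7.37 in untreated 22RV1 and 10.14, 10.28 and 10.46 in untreated LnCaP, a difference of 2.76 ± 0.12 SE (6.75-fold, adjusted p = 2.91e-09, limma). STAT6, the factor of interleukin 4 signalling, was the reverse, with 10.25, 10.01 and 9.78 in untreated 22RV1 and 5.88, 5.74 and 5.46 in untreated LnCaP, which was lower by 4.32 ± 0.15 SE on the log2 scale (20-fold, adjusted p = 4.42e-10). These gaps are far larger than the spread of any group, and under nicotine they were 2.49 and -4.19. STAT5B was lower in LnCaP by 0.90 ± 0.12 SE on the log2 scale (adjusted p = 6.55e-05), but by only 0.15 (adjusted p = 0.309, the highest over its alternatives, the lowest being 2.54e-06) when all its probe sets were averaged. STAT5A (-0.27), STAT4 (-0.04) and JAK3 (-0.15) were not called in untreated cells, and STAT5A reached -0.46 (adjusted p = 0.0247) under nicotine.

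**Figure D2:**
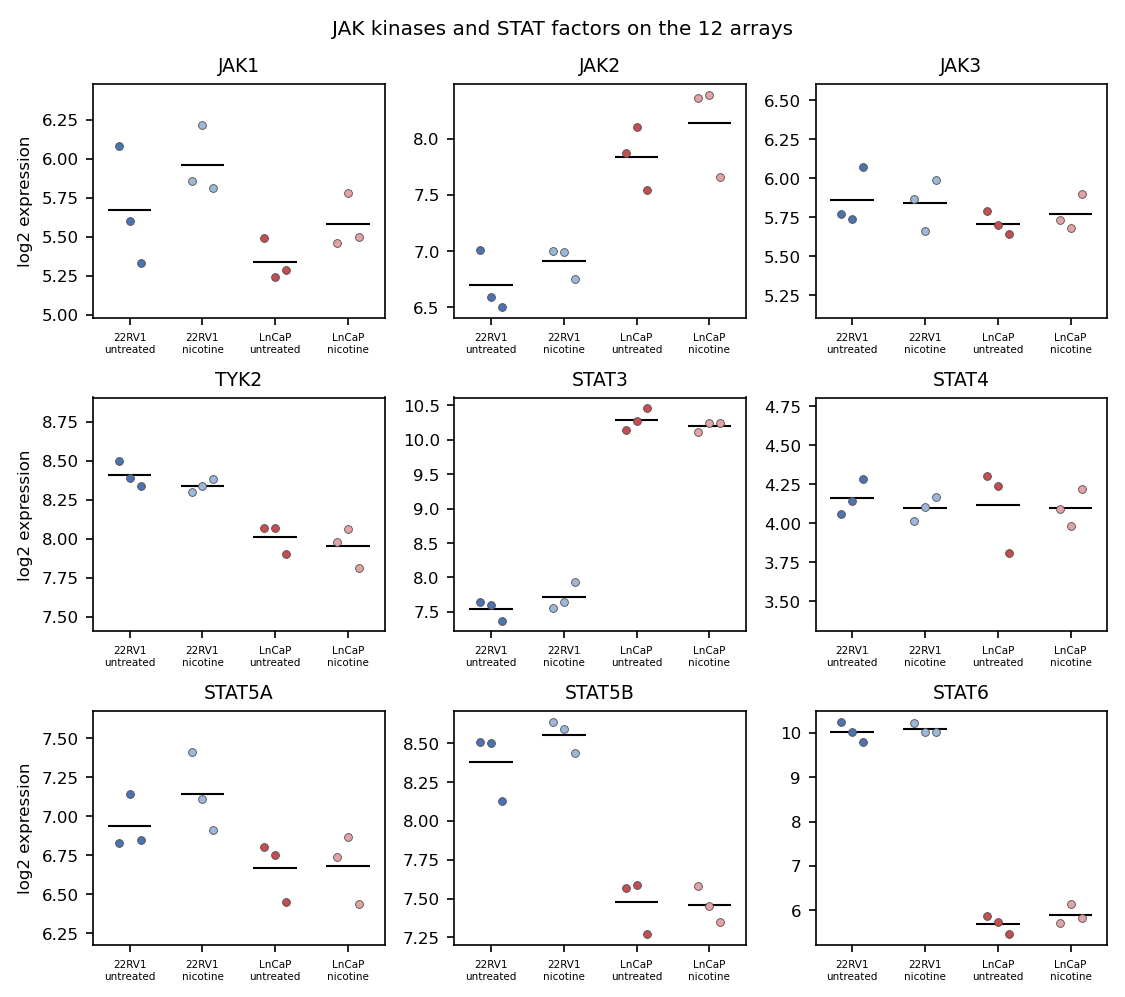
Log2 expression of the JAK kinases and STAT factors on each of the 12 arrays, with 1 point an array in the order of the replicate numbers and a bar at the mean of each group of 3; each panel has its own vertical scale. STAT3 lies near 10 in LnCaP and between 7.37 and 7.93 in 22RV1, STAT6 the other way round, JAK2 is higher and TYK2 lower in LnCaP, and JAK1 overlaps between the lines.

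Of 28 further JAK-STAT components listed, 25 were measured and 11 were called between the untreated lines (44.0%, beside the 47.8% of all genes), 6 higher and 5 lower in LnCaP, with a median of 0.017. Between the treated lines 16 were called (64.0%, beside 49.9% of all genes), 8 higher and 8 lower. SOCS2, a feedback inhibitor of growth hormone and cytokine signalling, was higher by 1.87 ± 0.24 SE, the adaptor STAM2 by 1.45 ± 0.14 SE and PIAS2, a SUMO ligase that binds STAT factors, by 1.43 ± 0.10 SE. Over the alternatives STAM2 ran from 0.91 to 1.57 and PIAS2 from 0.94 to 1.5, both called in each. STAM (0.55) and PIAS1 (0.51) were higher too, and CRKL (-0.60), PIAS3 (-0.47) and PIAS4 (-0.31) were lower along with STAT5B and STAT6. The PIAS4 call was lost with the arrays centred on the same median (-0.25, adjusted p = 0.0842, over a range of 0.00106 to 0.123). SOCS1 (0.02), SOCS3 (0.13) and CISH (-0.18), the feedback inhibitors that cytokines commonly induce, were not called.

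Of 23 other receptor chains that signal through JAK kinases, 19 were measured and 8 were called between the untreated lines, 5 higher and 3 lower in LnCaP. This was 42.1%, beside 47.8% of all genes (25.4% higher and 22.4% lower), so the list did not stand out by its share of calls. The higher ones were IL6R (1.75 ± 0.19 SE) and IL6ST (0.94 ± 0.12 SE), which together form the interleukin 6 receptor, IL4R (1.01 ± 0.19 SE), LIFR (0.64) and OSMR (0.38). The lower ones were the prolactin receptor PRLR (-0.83), IL11RA (-0.67) and CNTFR (-0.51). All 8 kept the same side under nicotine. The untreated difference of IL6R ran from 1.12 to 1.85 over the alternatives and was called in each. The OSMR call was lost in 5 of 20 alternatives (adjusted p up to 0.144), among them leaving out untreated 22RV1 replicate 1 or 3 or untreated LnCaP replicate 3.

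Among the interferon regulatory factors, IRF7 stood apart. IRF7, which drives interferon alpha genes and is itself induced by interferon, read 6.15, 6.17 and 6.52 in untreated 22RV1, 6.01, 6.07 and 6.14 in treated 22RV1, 7.28, 7.35 and 7.81 in untreated LnCaP and 7.33, 7.48 and 7.74 in treated LnCaP. The lines did not overlap, and LnCaP was higher by 1.20 ± 0.15 SE untreated (2.30-fold, adjusted p = 3.3e-05, limma) and by 1.45 ± 0.15 SE under nicotine (2.72-fold). IRF9, the DNA-binding partner of STAT2, read 7.22, 7.31 and 6.81 in untreated 22RV1, 7.10, 7.35 and 7.37 in treated 22RV1, 6.77, 6.81 and 6.70 in untreated LnCaP and 7.23, 6.93 and 6.98 in treated LnCaP. The lines overlapped over the 12 arrays, and the untreated difference was -0.35 ± 0.13 SE (adjusted p = 0.0441).

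The IRF9 call rested on its threshold: it was lost with the arrays centred on the same median (-0.29, adjusted p = 0.0847), with quantile normalization (-0.31, adjusted p = 0.0628) and when any 1 of 8 arrays was left out (untreated 22RV1 replicates 1 and 2, treated 22RV1 replicate 2, each untreated LnCaP array, or treated LnCaP replicates 2 and 3; values of -0.38 to -0.25). Over all its alternatives the adjusted p ran from 0.00306 to 0.177. IRF1, the factor that interferon gamma induces first, read 5.0, 5.42 and 5.55 in untreated 22RV1, 5.22, 5.30 and 5.70 in treated 22RV1, 5.47, 5.43 and 5.44 in untreated LnCaP and 5.43, 5.74 and 5.68 in treated LnCaP. The lines overlapped, and the difference of 0.13 ± 0.15 SE was not called.

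Among the members the largest gaps were in genes that interferon induces, of which all 27 listed were measured. Of these 12 were higher and 4 lower in untreated LnCaP (59.3% called, beside 47.8% of all genes, 25.4% higher and 22.4% lower), with a median of 0.264 beside 0.047 over all genes. IFI6, a mitochondrial protein linked to cell survival, read 5.29, 5.54 and 5.07 in untreated 22RV1, 5.48, 5.52 and 5.51 in treated 22RV1, 7.69, 7.87 and 8.11 in untreated LnCaP and 7.90, 7.94 and 8.12 in treated LnCaP. The gap between the lines was many times the spread within a group, at 2.59 ± 0.13 SE (adjusted p = 1.11e-08, limma). IFI44, a cytoplasmic antiviral gene, read 3.90, 3.82 and 3.86 in untreated 22RV1, 3.66, 4.12 and 4.05 in treated 22RV1, 5.53, 5.39 and 5.77 in untreated LnCaP and 5.87, 5.14 and 5.61 in treated LnCaP. The 22RV1 values were dim, meaning a group mean below the 25th percentile of all probe sets, and no array of one line reached the other. The difference was 1.70 ± 0.17 SE (3.26-fold, adjusted p = 5.67e-06), and a second probe set of IFI44, dim in all groups, showed none (-0.02), so the mean over both probe sets was 0.84.

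DDX60, a helicase that assists the RNA sensors, read 3.85, 3.69 and 3.66 in untreated 22RV1, 3.74, 3.60 and 3.43 in treated 22RV1, 5.31, 5.19 and 4.86 in untreated LnCaP and 5.57, 5.01 and 5.21 in treated LnCaP. It too was dim in 22RV1, and the untreated difference was 1.38 ± 0.15 SE (2.61-fold, adjusted p = 1.01e-05, limma). IFIH1, which encodes the RNA sensor MDA5, read 5.13, 5.47 and 5.71 in untreated 22RV1 and 6.03, 6.14 and 6.25 in untreated LnCaP. The untreated groups did not overlap, and the difference was 0.70 ± 0.19 SE (1.63-fold, adjusted p = 0.00906). With nicotine the 22RV1 arrays read 5.39, 5.24 and 6.03 and the LnCaP arrays 5.94, 5.65 and 5.78. The difference of 0.23 was not called (adjusted p = 0.343, over a range of 0.0201 to 0.778). Without treated 22RV1 replicate 3 it was 0.47 (adjusted p = 0.024). A second, dimmer probe set of IFIH1 gave 0.38 untreated and 0.31 with nicotine. Both were called in a limma fit of all probe sets (adjusted p = 0.012 and 0.03).

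ISG15 and RSAD2 were lower in LnCaP. ISG15, the ubiquitin-like protein that is attached to other proteins after interferon, read 11.53, 11.65 and 11.93 in untreated 22RV1, 11.44, 11.57 and 11.75 in treated 22RV1, 10.76, 10.63 and 11.04 in untreated LnCaP and 10.54, 10.62 and 10.91 in treated LnCaP. It was bright on all 12 arrays, at or above the 92.9th percentile of all probe sets on each, and every 22RV1 array lay above every LnCaP array. The untreated difference was -0.89 ± 0.14 SE (adjusted p = 0.000217, limma). RSAD2, which encodes the antiviral enzyme viperin, read 5.17, 5.10 and 5.13 in untreated 22RV1, 4.94, 4.89 and 5.02 in treated 22RV1, 4.44, 4.33 and 4.63 in untreated LnCaP and 4.34, 4.28 and 4.27 in treated LnCaP. It was dim in LnCaP, the lines did not overlap, and the untreated difference was -0.67 ± 0.08 SE (1.59-fold lower, adjusted p = 2.89e-05).

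The promoters of IFI6, IFI44, DDX60, ISG15 and RSAD2 are shown as examples from genes of opposite direction. Each window was picked for holding a match to an ISRE-like motif, so the sharing of a match by these genes is not a result. The sequences are the 200 bases before the transcription start, 5′ to 3′ on the gene's strand, from RefSeq on GRCh38.p14, and the capitals mark matches to the ISRE-like motif GAAANNGAAA read on either strand, so that a match on the other strand appears as TTTCNNTTTC. IFI6 lies at chr1:27672193-27672392 on the minus strand, IFI44 at chr1:78649589-78649788 on the plus strand, DDX60 at chr4:168318753-168318952 on the minus strand, ISG15 at chr1:1013297-1013496 on the plus strand and RSAD2 at chr2:6877577-6877776 on the plus strand.
IFI6, higher in LnCaP: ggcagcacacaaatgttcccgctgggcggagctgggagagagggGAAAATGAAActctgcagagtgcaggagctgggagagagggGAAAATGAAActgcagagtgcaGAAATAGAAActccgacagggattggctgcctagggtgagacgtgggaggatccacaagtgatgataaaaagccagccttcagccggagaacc
IFI44, higher in LnCaP: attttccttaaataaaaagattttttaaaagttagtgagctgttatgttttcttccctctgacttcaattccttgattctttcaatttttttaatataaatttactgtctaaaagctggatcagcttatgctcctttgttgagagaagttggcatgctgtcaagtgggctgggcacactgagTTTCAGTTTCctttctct
DDX60, higher in LnCaP: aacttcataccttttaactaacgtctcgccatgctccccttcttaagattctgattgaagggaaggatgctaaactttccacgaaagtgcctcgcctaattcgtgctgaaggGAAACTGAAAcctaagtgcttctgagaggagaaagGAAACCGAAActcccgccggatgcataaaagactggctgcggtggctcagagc
ISG15, lower in LnCaP: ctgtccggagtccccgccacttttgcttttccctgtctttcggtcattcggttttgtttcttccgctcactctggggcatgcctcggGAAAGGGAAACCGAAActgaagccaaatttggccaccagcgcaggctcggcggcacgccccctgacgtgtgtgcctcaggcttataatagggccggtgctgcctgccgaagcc
RSAD2, lower in LnCaP: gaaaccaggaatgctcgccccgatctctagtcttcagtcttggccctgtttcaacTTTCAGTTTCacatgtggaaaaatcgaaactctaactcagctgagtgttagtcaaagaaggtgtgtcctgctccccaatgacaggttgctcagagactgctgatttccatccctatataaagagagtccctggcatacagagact

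IFI6 held 3 matches, beginning 156, 115 and 93 bases before the start, DDX60 held 2 (88 and 53 bases), ISG15 held 2 that overlap (113 and 107 bases), and IFI44 (18 bases) and RSAD2 (145 bases) held 1 each. IFI44 and RSAD2 have 2 promoter entries each, and the window shown is one that holds a match within the 200 bases: the other IFI44 window holds a match 60 bases before its start, and the other RSAD2 window, at chr2:6865635-6865934, holds none. A gene with several entries is counted below as holding a motif where any of them does. Over windows of 300 bases, 250 before and 50 after the start, 30 of the 37 measured members had an entry, and IFNAR2, IRF7, OAS2, OASL, IFIT2, MX2 and USP18 did not. The ISRE-like motif was in 17 of these 30 members, 0 of 8 receptors, kinases and factors and 17 of 22 induced genes, beside 3.57% of all 35116 promoters in the table and 4.38% of 27305 genes. The induced genes held it whichever way they differed, in 8 of 11 that were higher in LnCaP, 3 of 3 that were lower and 6 of 8 that were not called. HERC6, among the higher genes, held no match in its window. The GAS motif TTCNNNGAA, which reads alike on both strands and can overlap the ISRE-like motif, was in 10 of the 30 members, beside 7.66% of all promoters and 9.38% of genes. A match is a run of letters and not a measured binding site.

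The modifier system and the membrane proteins split within themselves. HERC6, of the family of ligases that attach ISG15, read 4.80, 4.81 and 5.0 in untreated 22RV1, 5.39, 5.04 and 5.32 in treated 22RV1, 6.54, 6.63 and 6.94 in untreated LnCaP and 6.84, 6.75 and 6.95 in treated LnCaP. It was higher in untreated LnCaP by 1.83 ± 0.12 SE (3.56-fold, adjusted p = 1.54e-07, limma), against the direction of ISG15 itself. USP18, the protease that removes ISG15 and also restrains the type I receptor, did not pass the test, with means of 7.90 and 7.87 (difference -0.04, 95% interval -0.30 to 0.22, with the sign turning to 0.02 when arrays were centred on the same median).

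IFITM3, a membrane protein that blocks virus entry, read 10.03, 10.19 and 10.14 in untreated 22RV1, 9.73, 9.86 and 10.06 in treated 22RV1, 11.21, 11.31 and 11.32 in untreated LnCaP and 11.28, 11.43 and 11.37 in treated LnCaP. It was higher in untreated LnCaP by 1.17 ± 0.09 SE (2.24-fold, adjusted p = 6.53e-07, limma), with no overlap. Its probe set can also match close relatives, so its value may hold signal of IFITM2 and IFITM1, and the IFITM2 probe set was higher by 0.91. IFITM1, its neighbour on chromosome 11 with 0 coding genes between them, read 6.62, 6.53 and 6.54 in untreated 22RV1 and 6.02, 6.38 and 5.69 in untreated LnCaP. It was lower in LnCaP by 0.53 ± 0.18 SE on the log2 scale (adjusted p = 0.0263). That call was lost without any 1 of the untreated 22RV1 arrays or without untreated LnCaP replicate 1 or 3 (values of -0.55 to -0.36, adjusted p up to 0.116), and under nicotine the difference was -0.22 and not called.

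BST2, which encodes tetherin, depended on the arrays numbered 3. It read 6.49, 6.44 and 5.72 in untreated 22RV1, 6.75, 6.31 and 5.93 in treated 22RV1, 5.55, 5.65 and 5.87 in untreated LnCaP and 5.45, 5.50 and 5.75 in treated LnCaP. In each 22RV1 group replicate 3 was the lowest and in each LnCaP group the highest, so the untreated lines overlapped through it. The untreated difference was -0.53 ± 0.22 SE (adjusted p = 0.0701, limma) and without the 4 arrays numbered 3 it was -0.87 (adjusted p = 0.000731, over a range whose lowest value this is). Under nicotine it was -0.77 ± 0.22 SE (adjusted p = 0.0122), a call lost without treated 22RV1 replicate 1 (adjusted p = 0.0577).

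The IFIT family, RNA-binding proteins that block translation of foreign RNA encoded close together on chromosome 10, lay to one side. IFIT2 read 5.02, 4.99 and 5.32 in untreated 22RV1 and 6.04, 5.71 and 5.69 in untreated LnCaP, and was higher in LnCaP by 0.70 ± 0.12 SE (1.63-fold, adjusted p = 0.000437, limma). IFIT1, dim in all 4 groups, read 3.57, 3.80 and 3.77 against 4.12, 4.29 and 4.61 (0.63 ± 0.19 SE, adjusted p = 0.0138). IFIT3 read 5.34, 5.61 and 5.63 against 5.94, 5.80 and 5.83 (0.33 ± 0.09 SE, adjusted p = 0.0116). All 3 were called under nicotine as well, at 1.01, 0.65 and 0.24. The smaller calls were unsteady: IFIT1 lost its untreated call without untreated 22RV1 replicate 1 or untreated LnCaP replicate 3 (adjusted p up to 0.0688 over its alternatives), IFIT3 lost its own without untreated 22RV1 replicate 1 (0.23, adjusted p = 0.0523), and the IFIT3 call under nicotine was lost without any 1 of 9 arrays.

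The oligoadenylate synthetases, which make the messenger that switches on RNase L, all had higher means in untreated LnCaP, but the fit called OAS1 alone. OAS1, dim in all groups, read 3.99, 3.90 and 3.98 in untreated 22RV1 and 4.28, 4.31 and 4.38 in untreated LnCaP, a difference of 0.37 ± 0.07 SE (1.29-fold, adjusted p = 0.00116, limma) that was 0.59 under nicotine. OAS3 differed by 0.30 (adjusted p = 0.0822), OASL by 0.26 (adjusted p = 0.0646) and OAS2 by 0.25 (adjusted p = 0.0831). With the arrays centred on the same median all 3 passed the threshold (adjusted p = 0.0363, 0.0278 and 0.0411). With the replicate number as a block shared by both lines OAS3 (adjusted p = 0.026) and OASL (adjusted p = 0.0343) did so. The calls also turned on the probe set. In a limma fit of all probe sets, a second one of OAS1 gave 0.25 and was not called (adjusted p = 0.142). A second one of OASL gave 0.50 and was called (adjusted p = 0.0311), and one of OAS2 gave 0.04 (adjusted p = 0.823). OASL was called too when its probe sets were averaged.

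Of the MX proteins, dynamin-like GTPases encoded next to each other on chromosome 21, MX2 was called and MX1 was not. MX2, which blocks nuclear entry of retroviruses, read 5.11, 5.13 and 4.89 in untreated 22RV1 and 4.66, 4.61 and 4.52 in untreated LnCaP, where it was dim, and was lower by 0.45 ± 0.12 SE on the log2 scale (adjusted p = 0.00741, limma). Its difference under nicotine was -0.34, and that call was lost without treated 22RV1 replicate 1 or treated LnCaP replicate 1 or 3 (adjusted p up to 0.129). MX1, which blocks influenza and many other viruses, differed by 0.21 (95% interval -0.09 to 0.50) and was not called. Under nicotine MX1 differed by 0.34 (0.04 to 0.63) and fell just short of a call (adjusted p = 0.0578, limma). That difference passed the threshold with median centring, with quantile normalization, in a fit of the treated arrays alone and in some fits without 1 array.

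Of the remaining induced genes, IFI35, which binds the STAT partner NMI, read 6.84, 6.70 and 7.22 in untreated 22RV1 and 7.69, 7.22 and 7.84 in untreated LnCaP (0.66 ± 0.21 SE, adjusted p = 0.0195, limma). The ranges met at 7.22, and the call was lost without untreated 22RV1 replicate 1 or 2 or untreated LnCaP replicate 1 or 3 (adjusted p up to 0.08). IFI27, which was dim throughout, read 4.37, 4.41 and 4.54 against 4.73, 5.0 and 4.59 (0.33 ± 0.13 SE, adjusted p = 0.0455), and that call was lost without any 1 of 7 arrays, reaching 0.22 (adjusted p = 0.188) without untreated LnCaP replicate 2. ISG20, an RNA exonuclease, differed by -0.19 and was not called.

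The chemokines CXCL10 (0.20) and CXCL11 (0.17), which draw in T cells, were dim in all groups and not called, and so were IFI44L (0.01) and XAF1 (-0.04). In all, 8 members were dim in all 4 groups (OAS1, OAS2, IFIT1, CXCL10, CXCL11, IFI27, IFI44L and XAF1), 2 in 22RV1 alone (DDX60 and IFI44) and 2 in LnCaP alone (MX2 and RSAD2). Signals this low limit what a difference between groups can show.

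**Figure D3:**
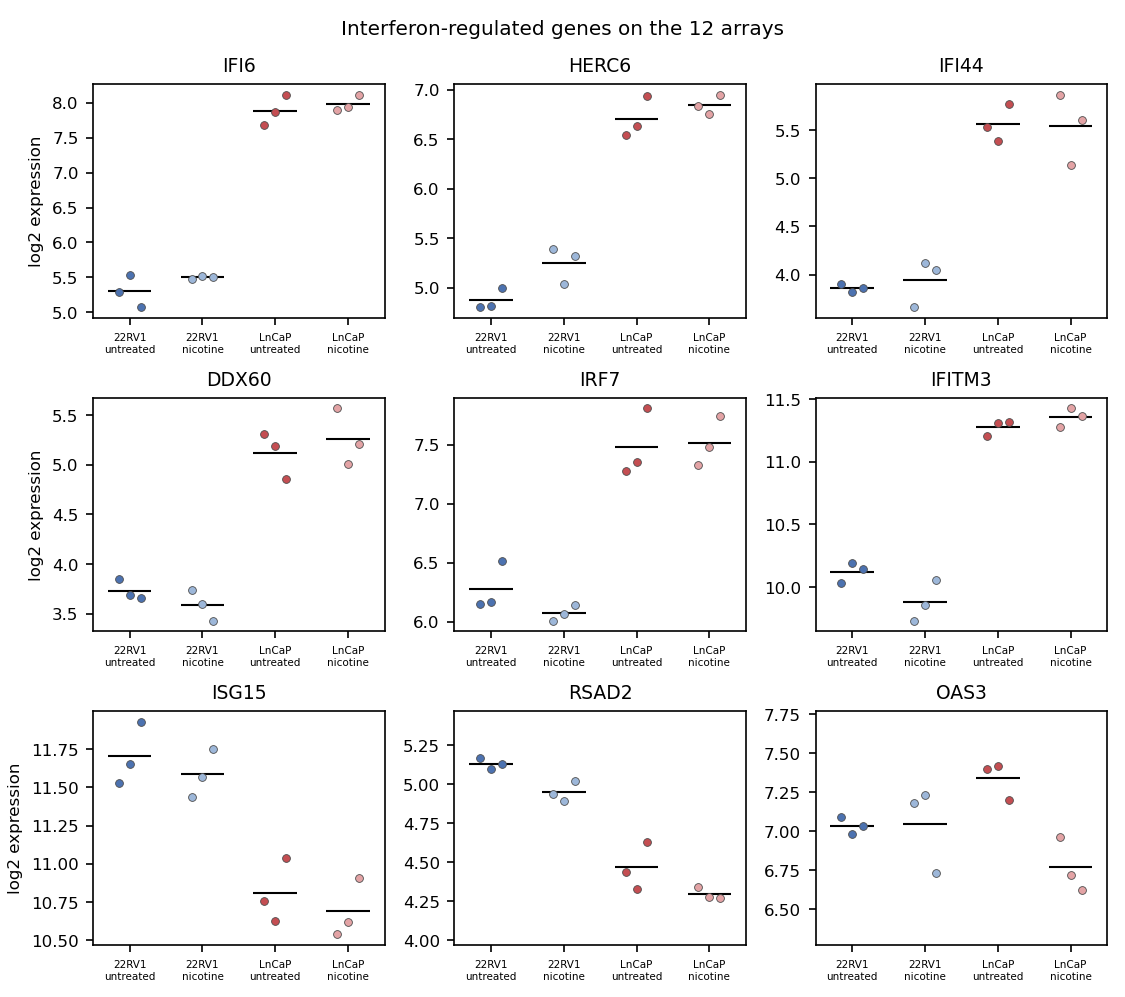
Log2 expression of 9 induced genes and factors on each of the 12 arrays, with 1 point an array and a bar at the mean of each group of 3; each panel has its own vertical scale. IFI6, HERC6, IFI44, DDX60, IRF7 and IFITM3 are higher in LnCaP and ISG15 and RSAD2 lower with no overlap between the lines, while the treated LnCaP arrays of OAS3 lie below the untreated ones.

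A wider list of interferon-stimulated genes held more genes higher than lower in LnCaP. Like the members, it was chosen with earlier results of these data known, so it is not independent support. Of 69 listed, 49 were measured, and 28 were higher and 3 lower in untreated LnCaP (63.3%, beside the 47.8% of all genes), with a median of 0.354. The largest were LY6E (2.59 ± 0.16 SE), LGALS3BP (2.59 ± 0.16 SE), SP100 (2.20 ± 0.15 SE), a component of nuclear bodies, the inflammatory caspase CASP4 (1.89 ± 0.17 SE), the antibody receptor TRIM21 (1.73 ± 0.13 SE), SP110 (1.40), PARP12 (1.38) and GBP2 (1.30). The size was less steady for some: over the alternatives SP100 ran from 1.15 to 2.36 and CASP4 from 1.12 to 1.98, both called in each. The lower genes were the phospholipid scramblase PLSCR1 (-3.61 ± 0.18 SE, adjusted p = 1.14e-08, limma), GMPR (-1.43) and ISG20L2 (-0.30). PLSCR1 read 7.87, 7.89 and 8.34 in untreated 22RV1 and 4.52, 4.10 and 4.66 in untreated LnCaP, a gap larger than that of any member. The ISG20L2 call was lost with the arrays centred on the same median (-0.23, adjusted p = 0.0948, over alternatives reaching 0.169).

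Of 28 listed interferon genes, nucleic acid sensors and adaptors, 24 were measured and 12 called, 8 higher and 4 lower in untreated LnCaP. This was 50.0%, near the 47.8% of all genes (25.4% higher and 22.4% lower). The higher ones were TRAF3 (1.15), the RNA sensor TLR3 (1.01), the adaptors MAVS (0.78) and MYD88 (0.76), RIGI (0.65), IFNB1 (0.34), DDX41 (0.32) and IRF5 (0.31). The lower ones were the RNA-activated kinase EIF2AK2 (-0.67), IRF3 (-0.47), the RNA editing enzyme ADAR (-0.25) and TBK1 (-0.22). EIF2AK2 was not called when its probe sets were averaged (-0.20, adjusted p = 0.223), and ADAR (-0.19, adjusted p = 0.0721) and TBK1 (-0.15, adjusted p = 0.101) were not when the arrays were centred on the same median. Of the higher genes, RIGI lost its call without untreated 22RV1 replicate 1 or 2 or untreated LnCaP replicate 3 (adjusted p up to 0.119), IFNB1 in 5 of 20 alternatives (up to 0.107), among them leaving out untreated 22RV1 replicate 1 or 3 or untreated LnCaP replicate 1, and IRF5 in 3 of 21 (up to 0.0702), among them leaving out untreated 22RV1 replicate 3. The interferon genes themselves, IFNA1, IFNA2, IFNB1, IFNG and IFNW1, lay at or below the 21.5th percentile of all probe sets in every group, and IFNB1 read 4.07, 4.40 and 4.14 in untreated 22RV1 and 4.63, 4.50 and 4.51 in untreated LnCaP.

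Without a block for the replicate number, nicotine called none of the members. The limma fit gave 0 of 37 in 22RV1 (beside 0% of all genes), 0 in LnCaP (beside 0.694%, 0.109% higher and 0.585% lower), 0 for the average of both lines (beside 0.376%, 0.0836% higher and 0.293% lower) and 0 for the difference between the lines' effects (beside 0%). At an unadjusted p under 0.05 the members numbered 3 (8.11%, beside 5.29% of all genes), 2 (5.41%, beside 12.2%), 8 (21.6%, beside 11.6%) and 2 (5.41%, beside 6.26%) in the same order. The median effect was 0.01 in 22RV1 and 0.03 in LnCaP. In each line every member's 95% interval lay within 1 log2 unit of no change, and 28 in 22RV1 and 27 in LnCaP lay within 0.5. The median interval reached 0.28 to either side, from 0.16 for OAS1 to 0.49 for BST2. These intervals are not adjusted for the number of genes, so an effect past its own interval could still miss the threshold, as OAS3 in LnCaP and HERC6 in 22RV1 did. With each line's same-numbered arrays as a block, the fit called OAS3 in LnCaP, beside 5.39% of all genes. It called no member for the other nicotine effects, beside 3.31% of all genes for the average, 19 genes for the difference and 0 in 22RV1. At an unadjusted p under 0.05 that fit held 6 of 37 members in 22RV1, 8 in LnCaP, 15 for the average and 5 for the difference. The share of all genes at that unadjusted level was not computed for it, so these counts are not read as a result about the members.

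**Figure D4:**
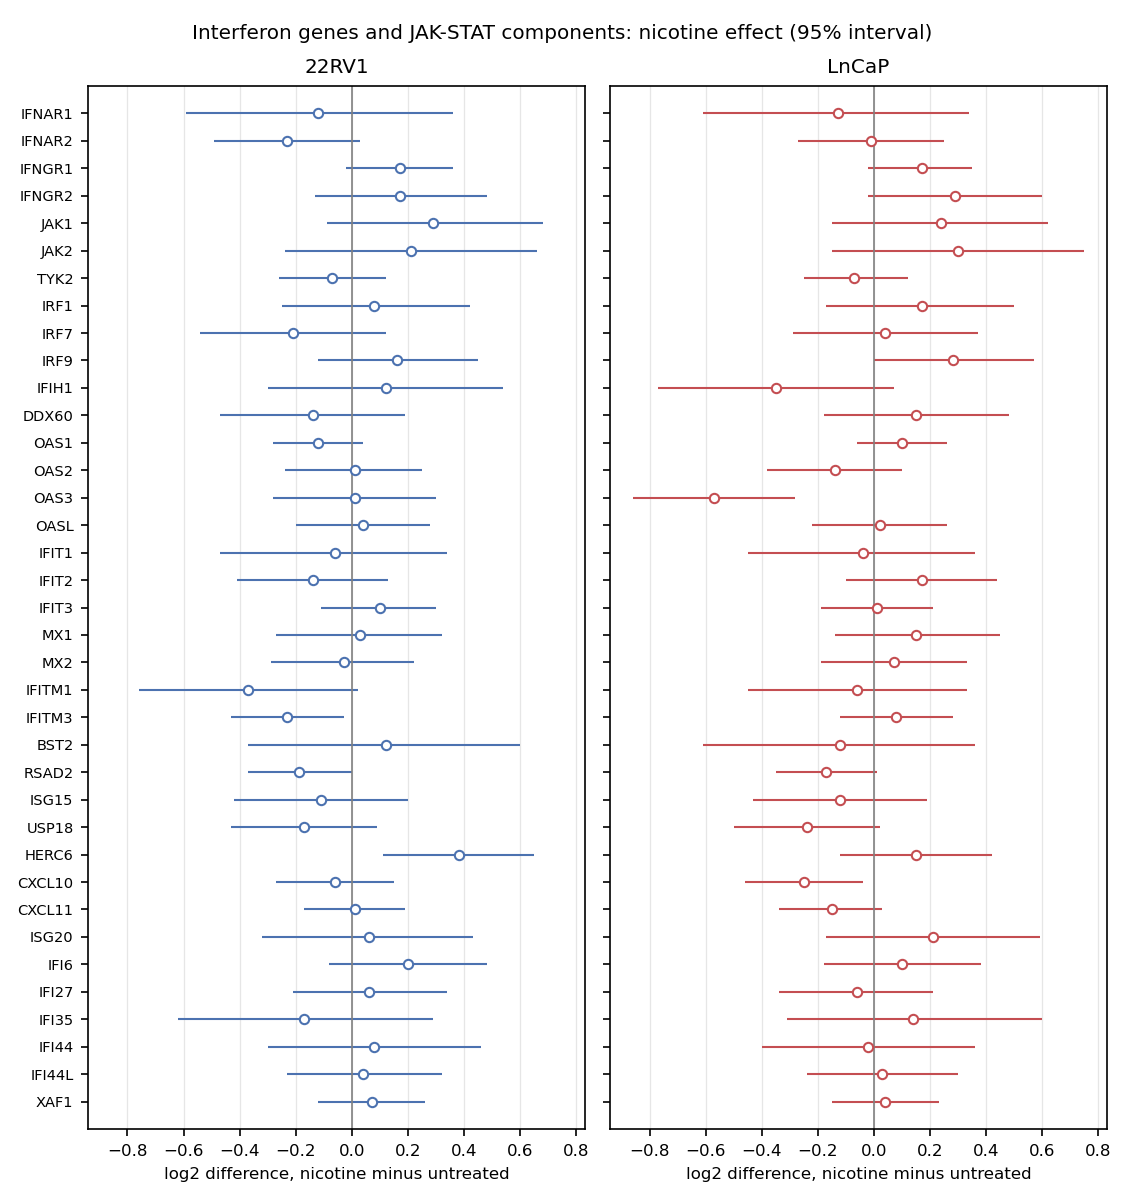
Log2 difference between nicotine-treated and untreated arrays for the 37 measured members in 22RV1 (left) and LnCaP (right), 3 arrays a group, in the same order as for the line difference. Bars are 95% intervals of the limma fit and open points were not called; the point farthest from 0 is OAS3 in LnCaP at -0.57, with an interval of -0.86 to -0.28.

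OAS3 in LnCaP came closest to the threshold. It read 7.40, 7.42 and 7.20 in untreated LnCaP and 6.96, 6.72 and 6.62 with nicotine, so each treated array lay below each untreated one. In 22RV1 it read 7.09, 6.98 and 7.03 untreated and 7.18, 7.23 and 6.73 with nicotine, where the groups overlapped. The LnCaP effect was -0.57 ± 0.13 SE (1.49-fold lower, adjusted p = 0.079, limma), and the 22RV1 effect was 0.01 ± 0.13 SE. With each line's same-numbered arrays as a block, OAS3 passed the threshold in LnCaP (adjusted p = 0.0185), in a fit that called 5.39% of all genes, and over all its alternatives the adjusted p ran from 0.0185 to 0.281. It also passed without treated 22RV1 replicate 3 (adjusted p = 0.03). The difference between the lines' effects was -0.58 ± 0.19 SE and was not called (adjusted p = 0.69).

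The other effects with the smallest p were weaker still. In 22RV1 they were HERC6 (0.38 ± 0.12 SE, adjusted p = 0.879, limma), IFITM3 (-0.23) and RSAD2 (-0.19). In LnCaP they were CXCL10 (-0.25, adjusted p = 0.29) and IRF9 (0.28, adjusted p = 0.42). Averaged over the lines, RSAD2 stood at -0.18 (adjusted p = 0.242), HERC6 at 0.26 (adjusted p = 0.253) and OAS3 at -0.28 (adjusted p = 0.256). For the difference between the lines' effects IFITM3 (0.31) and OAS1 (0.22) followed OAS3. None of these passed the test. The differences of the 3 same-numbered pairs had one sign in 16 of the 37 members in 22RV1 (43.2%, beside 35.4% of all genes) and in 21 in LnCaP (56.8%, beside 40.8%).

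No receptor, kinase or factor was called for nicotine. The effect of nicotine on JAK2 was 0.21 (95% interval -0.24 to 0.66) in 22RV1 and 0.30 (-0.15 to 0.75) in LnCaP, and on JAK1 it was 0.29 (-0.09 to 0.68) and 0.24 (-0.15 to 0.62). For IRF7 it was -0.21 (-0.54 to 0.12) and 0.04 (-0.29 to 0.37). These intervals do not show that nicotine was without effect, only that none was resolved. No gene of the 4 further lists was called for nicotine without the block. With each line's same-numbered arrays as a block, 5 of their 117 measured genes were called in LnCaP (4.27%, beside 5.39% of all genes in that fit). SOCS2 (0.33, adjusted p = 0.0477) and IL6ST (0.32, adjusted p = 0.0367) had higher values with nicotine, and TNFSF10 (-0.56, adjusted p = 0.0196), GBP2 (-0.42, adjusted p = 0.0277) and CCL8 (-0.30, adjusted p = 0.0399) lower ones. Without the block the adjusted p of these 5 genes ran from 0.111 to 0.686. None of those lists had a call in 22RV1 under the block. In the same fit the prostate marker KLK2 (-0.77) and the stromal marker ACTA2 (-0.99) fell in LnCaP too, and their part in these changes was not tested.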

How the data were processed

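RNA was measured for 12 samples on single-colour Affymetrix arrays after TRIzol extraction and biotin labelling, per the labels' protocols. The authors deposited log2 expression values for 22277 probe sets; how they were normalized is not given in the sources used here. Nothing says that replicates came from separate cultures, so p-values cover only the spread among these samples and it may be technical, and the number of arrays limits the precision (median SE 0.11). Array medians lay between 6.61 and 6.71.

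Gene names came from the platform annotation: 19070 had 1 symbol, 1043 several and 2164 none. Per gene the one-symbol probe set with the highest mean was kept, unfiltered. R 4.3.3 and limma 3.58.1 (lmFit, eBayes, group means) were used, after being tested on simulated data, with Benjamini-Hochberg adjustment over 11963 genes. Of the 37 measured members, 27 had 1 probe set and 10 had several.

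The members and lists were chosen with earlier results of these data known. Every member was named. Receptors, kinases and factors, called members and the 3 smallest p of each nicotine contrast got values, and of each list up to 8 called genes a direction; IFITM2, SOCS1, SOCS3, CISH and the comparisons with marker genes were named beyond that rule, after their values were seen.

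The labels number replicates alike in every group. Within a line, arrays of one number deviated from their group means together. They correlated at 0.465, 0.454 and 0.64 in 22RV1 and 0.371, 0.225 and 0.599 in LnCaP. Arrays of one number were therefore taken as paired, though LnCaP untreated replicate 2 correlated better with treated replicate 1 (0.27). The fit reported has no block, so its nicotine SEs and p-values leave this pairing unused. The fit with each line's number as a block is an alternative, given where it changes a call and for the nicotine counts of members. Arrays numbered 3 held 48% of the residual sum of squares. At most 0.0808% of values were identical in a replicate pair.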

Additional observations from a re-analysis of the deposited data

How the results depend on the processing

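Of 134 counts of called members recomputed under the alternatives, 129 stayed within 1.5 times. Many of these were nicotine counts that stayed at 0, and a fall from 21 to 14 members between the untreated lines lay just on the limit. The other 5 were the nicotine effect in LnCaP, which rose from 0 to 1 member, OAS3, with array weights, with the replicate number as a block shared by both lines or within the line, without the 4 arrays numbered 3, and without treated 22RV1 replicate 3. The block changed no other count of members called for nicotine by over 1.5 times; for the line comparisons the shared-number block called 24 untreated (IFNAR2, OAS3 and OASL gained) and 20 treated (OAS3 and OASL gained, IFIT3 lost), and a block within the line could not be fitted. Leaving out 1 array gave 14 to 24 members for the untreated lines, the lowest without untreated 22RV1 replicate 1, 16 to 20 for the treated lines, 0 to 1 for nicotine in LnCaP and 0 for the other nicotine effects. The other settings gave 14 to 26 and 13 to 22 for the lines. The lowest came with dim genes left out, where only 25 members were tested. The calls over all 11963 genes moved as well, from 5719 untreated and 5973 treated in the main fit. They were 5114 to 5845 untreated and 5383 to 6054 treated without 1 array. The shared-number block gave 6292 and 6538, and array weights 6450 and 6569. Of the 21 members called between untreated lines, 14 were called under every alternative that tested them, and of 19 between treated lines, 14. The fit with dim genes left out did not test DDX60, OAS1, RSAD2 and IFI44, which both counts include, or MX2, which the untreated count includes. Centring the arrays on the same median moved the all-gene median from 0.047 to 0.108 and called 19 members higher and 5 lower, beside 3577 and 2375 of all genes. Of 2642 recomputed values of single genes, 2448 kept their direction and side of the threshold, 137 lost a call, 41 gained one and 16 turned sign. All 16 were uncalled genes of the untreated line comparison near 0, and the cause was not tested: without the arrays numbered 3, IFNGR2 was 0.01 and STAT4 0.17, with median centring USP18 and STAT4 were 0.02 and XAF1 0.03, with array weights USP18 and STAT4 were 0.04, and with probe sets averaged JAK3 was 0.03. Leaving out 1 array gave -0.03 to 0.24 for IRF1, -0.13 to 0.06 for USP18, -0.10 to 0.04 for XAF1, -0.05 to 0.06 for IFI44L and -0.14 to 0.11 for STAT4.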
